A study of Homo sapiens with 9 samples.

Results

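siRNA 2, 1 of 2 small interfering RNAs aimed at the long non-coding RNA gene EXOSC10-AS1, was compared with a control siRNA in HCT116 cells. The comparison uses 6 of the 9 RNA-seq libraries of the series, 3 with siRNA 2 and 3 with the control siRNA, chosen by their titles and treatments, and all genes counted in them. HCT116 is an established human colorectal cancer cell line of epithelial origin. Per the labels, the cells were grown in McCoy's 5A medium with bovine serum, transfected with Lipofectamine RNAiMax, a lipid reagent, and lysed in Trizol for total RNA. Both groups carry the batch entry Day 3, and the siRNA 2 libraries are labelled EXOSC10-AS1 knockdown. Nothing in the labels tells if replicate libraries are separate cultures, so p-values measure the spread between these libraries, which may be technical. The other 3 libraries, with siRNA 1 against the same RNA, shared the fit and serve below as a second measurement against the same controls.

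A small interfering RNA guides the Argonaute protein to RNAs that pair with it, which are then cut or lost, and it can also act on other RNAs that match only its seed. EXOSC10-AS1 is transcribed from the strand opposite EXOSC10, which encodes an RNA-cutting subunit of the exosome in the nucleus, the complex that trims and destroys RNA from its 3′ end. Several programmes described below are run by single transcription factors in cultured tumour cells. SREBP2 drives sterol synthesis when membranes are short of cholesterol, hypoxia-inducible factors drive glycolysis and angiogenic factors when oxygen is low, and ATF4 drives amino acid synthesis and uptake when amino acids are scarce. Such programmes are often read from the RNA of their target genes.

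The siRNA 2 libraries held 61.8, 59.8 and 63.9 M deposited counts and the control libraries 60.0, 56.8 and 62.1 M. Levels are given in CPM, the counts of a gene as a share of all tested counts after TMM scaling, and in the order of replicates 1, 2 and 3. Differences are log2 changes of siRNA 2 against control. After ± stands a standard error worked back from the change and the statistic of the test named next. A gene was called, and is said to have risen or fallen, at a Benjamini-Hochberg adjusted p under 0.05 by the quasi-likelihood test of edgeR over 20868 genes. By this test 2872 genes were called, or 13.8% of those tested. Of these, 1284 rose (6.15%) and 1588 fell (7.61%), and 158 and 182 changed at least 2-fold. The median change of all genes was -0.01. Among 14538 coding genes 17.7% were called, a share to set beside the counts of the lists below.

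EXOSC10-AS1 itself was barely detected. It stood at 0.434, 0.0706 and 0.226 CPM in the controls and at 0.0812, 0.216 and 0 CPM with siRNA 2. The groups overlapped, the change was -1.29 ± 1.24, and the gene was not called (adjusted p = 0.549). EXOSC10 stood at 94.1, 89.7 and 88.7 CPM in control and at 100.6, 99.7 and 98.2 CPM with siRNA 2. All 3 siRNA 2 libraries lay above the controls, but the change of 0.13 ± 0.07 was not called (adjusted p = 0.27). Exons of EXOSC10-AS1 and EXOSC10 overlap on opposite strands and no source states which strand was counted, so reads of one may be counted for the other. The table therefore does not show a loss of the targeted RNA at this depth. Of 26 genes of the exosome and its cofactors, 1 rose and 2 fell, with a median change of 0.10, or 0.03 with the GC trend described next removed. The subunit gene EXOSC6 fell by 0.74 ± 0.18 and DIS3L, a cytoplasmic exosome nuclease gene that overlaps an antisense gene, rose by 0.37 ± 0.09. TENT4A, a poly(A) polymerase gene, fell by 0.23 ± 0.06, and was not called with the trend removed (-0.07). In fits that each left out 1 library, EXOSC6 and TENT4A lost their calls in 5 and DIS3L in 4. Adjusted p reached 0.106 for EXOSC6 without siRNA 2 replicate 2, and 0.0901 for DIS3L and 0.183 for TENT4A without control replicate 3.

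The 3 siRNA 2 libraries were not alike. On the first principal component, which held 25.9% of the variance, replicate 1 lay at 19.2 and replicates 2 and 3 at 63.5 and 59.1, with controls from -8.01 to -4.21. Across 12160 well expressed genes, the difference from the control mean correlated with the GC content of the longest transcript at -0.181 in replicate 1, -0.535 in replicate 2 and -0.539 in replicate 3. In the controls these correlations ran from -0.0499 to 0.0685, and with siRNA 1 they were 0.57, -0.0885 and -0.0863 in replicates 1, 2 and 3. These are descriptions across genes, which share a library. From the tenth of genes with the lowest GC content to the tenth with the highest, the median difference ran from 0.20 to -0.50 in replicate 2, from 0.21 to -0.49 in replicate 3 and from 0.06 to -0.07 in replicate 1. Mitochondrial transcripts took 8.73, 9.09 and 9.02% of counts with siRNA 2 and 8.21 to 8.32% in control. The part of RNA quality in these differences was not tested.

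**Figure D1:**
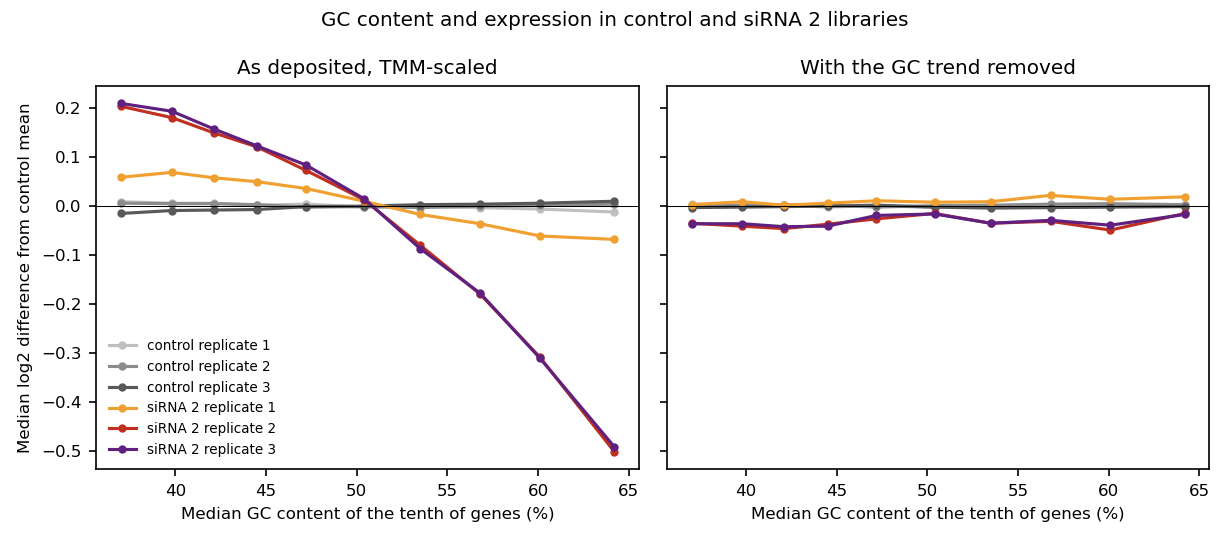
The plot of GC content gives the median log2 difference from the control mean (vertical axis) for 10 equal groups of genes ordered by GC content in percent (horizontal axis), as deposited (left) and with the trend removed per library (right). Each line is 1 library. As deposited, siRNA 2 replicates 2 and 3 fall from 0.20 and 0.21 to -0.50 and -0.49, and after removal the outermost gene groups of these libraries lie between -0.04 and -0.01.

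The trend weighs on which genes were called. Among the third of genes with the least GC, 551 rose and 118 fell, and among the third with the most, 152 rose and 1029 fell. With a smooth GC trend removed from each library these counts became 601 and 679, and 771 and 819. Over all 20200 genes with a GC value, 4292 were called after removal (21.2%), 2088 of them up (10.3%) and 2204 down (10.9%). Of 2851 called genes with a GC value, 2444 were called again in the same direction (1150 up, 5.69%, and 1294 down, 6.41%), 407 were not called, and 0 were called the opposite way. A further 1848 genes were called only after removal. In fits of the 6 libraries alone, 4664 genes were called as deposited and 4724 after removal. The reason for the added calls was not tested. Values with the trend removed are given below beside those as deposited for the main lists and for genes whose change differed most. Values with siRNA 1, and tests between the siRNAs, are as deposited throughout. They hold the GC trend of siRNA 1 replicate 1, which had the opposite sign. Between the siRNAs 4681 genes were called as deposited and 5503 with the trend removed.

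Calls also depended on the libraries in the fit, and leaving out any but siRNA 2 replicate 1 lowered their number alike. Without control replicates 1, 2 and 3 in turn, 1105, 1080 and 1094 genes were called, and 1093 and 1099 without siRNA 2 replicates 2 and 3. Without siRNA 2 replicate 1, the library nearest to the controls, 4386 were called. In every one of these 6 fits 867 genes (4.15% of those tested) kept their call, 363 up (1.74%) and 504 down (2.42%). Of these, 847 were also called in the same direction with the GC trend removed. In what follows a call is said to be kept when it held in all 6 of these fits as deposited. With the GC trend removed, leaving out 1 library gave 2658 to 2762 called genes, or 5140 without siRNA 2 replicate 1, against 4292 with all libraries. Many of the genes named below share exons with a gene on the opposite strand, SREBF2, VEGFA, SLC7A5, HSPD1 and CCND1 among them, and their counts are uncertain to that extent.

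The 15 largest rises among genes called in both fits, with groups that did not overlap and a mean log2 CPM of 2 or more, ran from 1.40 to 2.80. APOBEC3G, a cytidine deaminase that restricts retroviruses, went from 2.10, 1.38 and 1.10 CPM in control to 10.8, 10.7 and 10.4 CPM with siRNA 2, a change of 2.80 ± 0.27 (edgeR, adjusted p = 0.000319). IGFBP3, which binds insulin-like growth factors outside the cell, went from 6.76, 6.51 and 7.96 CPM to 33.7, 28.4 and 31.6 CPM, a change of 2.14 ± 0.12. In both genes every siRNA 2 library lay well above every control, and replicate 1 was as high as the others. MYBPH, a myosin-binding protein gene, rose by 1.83 ± 0.11, SCG2, a granin of secretory vesicles, by 1.70 ± 0.11, LONRF2 by 1.62 ± 0.12 and the zinc finger gene ZSCAN31 by 1.54 ± 0.12. CEMIP, a hyaluronan-degrading protein gene, rose by 1.43 ± 0.09, the adhesion molecule gene CEACAM1 by 1.42 ± 0.15 and the neuronal calcium sensor gene VSNL1 by 1.40 ± 0.10. The others were the non-coding RNA gene LINC02331, the integrin gene ITGB8, GPATCH4, the interferon-induced genes IFIT1 and IFIT2, and the matrix glycoprotein gene SPARC.

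13 of the 15 rises were kept. ITGB8 had 1 low control library (2.12, 8.94 and 8.94 CPM against 22.2, 26.1 and 29.3 CPM) and lost its call in 4 fits, with adjusted p up to 0.0783 without siRNA 2 replicate 3. GPATCH4 (6.21, 7.32 and 4.17 CPM against 19, 9.37 and 19.6 CPM) lost it in 3 fits, and its largest adjusted p was 0.0661, without control replicate 3. With siRNA 1, which called 7.08% of all genes, 3 of the 15 genes also rose, and SPARC fell, by 2.32, where siRNA 2 raised it by 1.40 ± 0.18 (4.77, 5.10 and 4.22 CPM in control against 12, 12.2 and 13.1 CPM). The level with siRNA 2 differed from that with siRNA 1 in 13 of the 15, all but SCG2 and GPATCH4, where 22.4% of all genes tested differed. Exons of 5 of the 15, ITGB8, CEMIP, CEACAM1, IFIT2 and SPARC, overlap a gene on the opposite strand, and their counts are uncertain in so far as counting ignored strand.

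The 15 largest falls ran from -1.90 for CD68 to -1.33 for BNIP3L. CD68, a lysosomal membrane glycoprotein gene, went from 18.4, 21.5 and 15.5 CPM in control to 4.55, 6.48 and 3.87 CPM with siRNA 2, a change of -1.90 ± 0.19 (edgeR, adjusted p = 0.000394). DDIT3, which encodes the stress transcription factor CHOP, went from 14.6, 15.1 and 15.4 CPM to 5.67, 5.72 and 5.88 CPM, a change of -1.38 ± 0.10. GADD45B, a stress sensor gene, went from 43.8, 45.2 and 44.7 CPM to 17.9, 16.2 and 17.6 CPM, a change of -1.37 ± 0.09. In DDIT3, GADD45B and BNIP3L the 3 siRNA 2 libraries stood side by side. In others replicate 1 lay between the controls and its replicates. TMEM158 stood at 54.2, 20.6 and 20.6 CPM with siRNA 2 against 103 to 112 CPM in control, and CDKN1C, a cyclin-dependent kinase inhibitor gene, at 10.1, 5.78 and 5.75 CPM against 20.6 to 22.6 CPM. The metallothionein gene MT1X stood at 22.2, 11 and 11.2 CPM against 36.8 to 41.0 CPM. With the GC trend removed TMEM158 changed by -1.42, CDKN1C by -1.29 and MT1X by -1.34.

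12 of the 15 falls were kept. TNFRSF6B, a decoy receptor gene, FOXD1 and MAFA, both transcription factor genes, lost their calls in 5 fits each, with adjusted p up to 0.0998 without siRNA 2 replicate 2, 0.128 and 0.0955 without siRNA 2 replicate 3. The rest were the transcription factor gene CEBPB, the arginase gene ARG2, the glutathione-degrading enzyme gene CHAC1, the amino acid transporter gene SLC7A5 and RPL17-C18orf32, a readthrough gene whose reads cannot be separated from RPL17. With siRNA 1, 4 of the 15 also fell, 7 were not called and 4 rose, namely CD68, DDIT3, CHAC1 and SLC7A5. 12 of the 15 differed between the siRNAs. Exons of 8 of the 15 overlap genes on the opposite strand, CD68 and DDIT3 among them, and 5 share exons with another gene on the same strand.

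**Figure D2:**
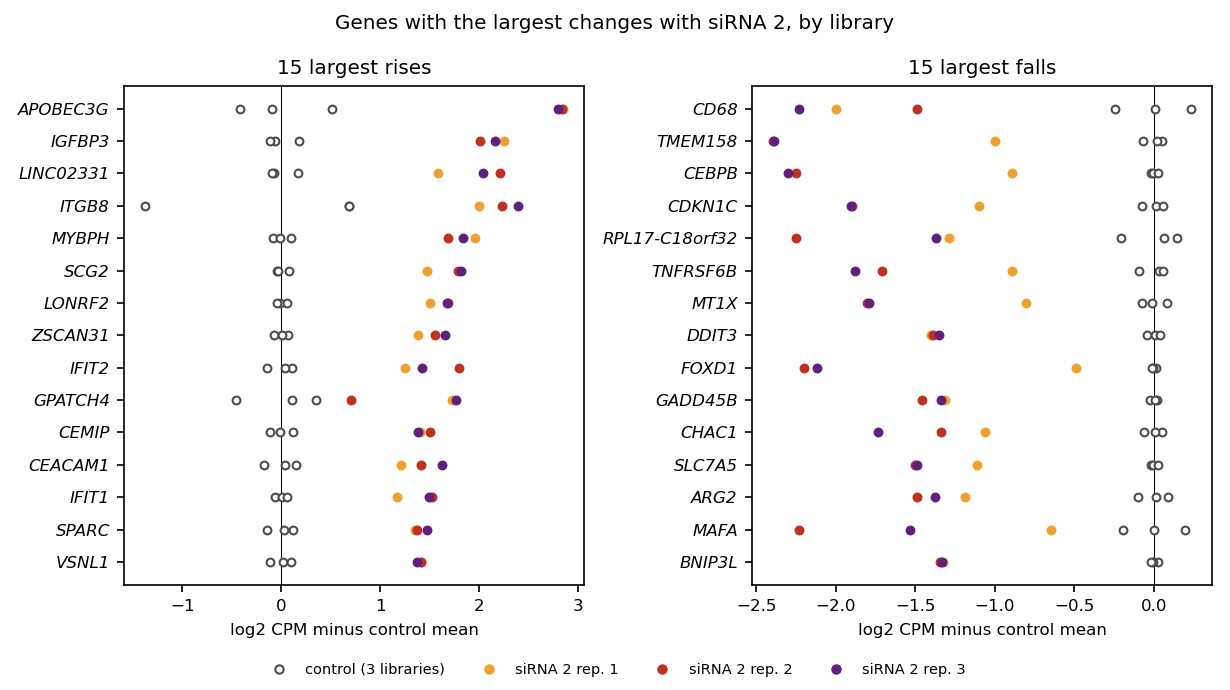
The plot of leading genes gives, for the 15 largest rises (left) and the 15 largest falls (right), log2 CPM minus the control mean (horizontal axis) in each library. Open points are the 3 controls and filled points the 3 siRNA 2 libraries. All filled points lie outside the range of the open ones, which the choice of genes required, and replicate 1 (orange) is nearest to the controls for CEBPB, TMEM158 and FOXD1.

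Sterol synthesis genes were lower with siRNA 2 from the first steps of the pathway to the last. Of 20 genes of the synthesis pathway 15 fell and 0 rose, with a median change of -0.46, and -0.53 with the GC trend removed, against -0.01 and -0.02 for all genes. 17 of the 20 had all siRNA 2 libraries below all controls, as did 20.2% of all genes tested, and 9 of the 15 calls were kept. The medians in replicates 1, 2 and 3 were -0.50, -0.48 and -0.48, so the library with little GC trend showed the same shift. Of all 38 sterol genes, regulators and transporters included, 20 fell and 1 rose.

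SREBF2, which encodes SREBP2, the transcription factor of the sterol pathway, went from 350.5, 366 and 359 CPM in control to 183, 149.7 and 141 CPM with siRNA 2, a change of -1.18 ± 0.10 (edgeR, adjusted p = 0.000156). All 3 siRNA 2 libraries were below all controls. INSIG1, whose protein holds SREBP2 in the endoplasmic reticulum, fell by 0.86 ± 0.16, from 89.6, 86.2 and 82.8 CPM to 51.9, 42.0 and 48.1 CPM. Its paralog INSIG2 fell by 0.51 ± 0.12 but lost its call in 5 fits (adjusted p up to 0.0862 without control replicate 3). Among the enzymes, HSD17B7 fell by 0.90 ± 0.10, MVD by 0.89 ± 0.14 (0.58 with the GC trend removed), the mevalonate kinase gene MVK by 0.78 ± 0.09 and the squalene synthase gene FDFT1 by 0.45 ± 0.06. HMGCS1, a synthase of the mevalonate route, fell by 0.47 ± 0.12 and lost its call in all 6 fits (adjusted p up to 0.10 without control replicate 2). NPC1, which exports cholesterol from lysosomes, fell by 0.77 ± 0.07, from 102, 103 and 99.7 CPM to 55.8, 63.6 and 59.3 CPM. ABCA1, which exports cholesterol from the cell, was the 1 member that rose, by 0.93 ± 0.20, from 5.06, 6.30 and 4.4 CPM to 8.43, 11.5 and 10.1 CPM, and lost its call in 4 fits (up to 0.0631 without control replicate 3).

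The promoter of SREBF2 is shown because it was the 1 sterol promoter of 29 with a RefSeq entry that held TCACNCCAC, a form of the sterol regulatory element to which SREBP2 binds. The stretch runs from 250 bases before the transcription start to 50 after it, in RefSeq's GRCh38.p14, with the match in capitals, and is chr22:41832855-41833154 on the plus strand. The match starts 133 bases before the transcription start.
SREBF2: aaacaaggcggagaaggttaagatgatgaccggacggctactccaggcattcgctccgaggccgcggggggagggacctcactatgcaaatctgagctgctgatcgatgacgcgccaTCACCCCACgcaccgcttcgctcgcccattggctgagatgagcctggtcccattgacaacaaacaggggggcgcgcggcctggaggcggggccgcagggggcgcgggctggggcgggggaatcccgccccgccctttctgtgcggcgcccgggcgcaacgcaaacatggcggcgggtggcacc
Searched on both strands, this motif was in 313 of 27305 promoters, or 1.15%. The pentamer CCAAT, the site of the factor NF-Y that works beside SREBP2, was in 17 of the 29 sterol promoters (58.6%) and in 35.7% of all promoters. A match is a description of letters in this window and not evidence of binding.

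Against siRNA 1, 11 of the 20 synthesis genes were lower with siRNA 2 and 0 higher, where 12.3% of all genes were lower. With siRNA 1 against the same controls, 4 fell and 1 rose, with a median of -0.12, where 3.36% of all genes fell and 3.72% rose. SREBF2 was at -0.47 with siRNA 1 (adjusted p = 0.018) and differed between the siRNAs (adjusted p = 0.0011). Of 15 genes of fatty acid synthesis, the branch run by SREBP1, 4 fell and 1 rose with siRNA 2, with a median of -0.11, and with the GC trend removed 8 fell and 2 rose, with a median of -0.21. ACSS2, which makes acetyl-CoA from acetate, fell by 0.65 ± 0.06, the phosphatidate phosphatase gene LPIN1 by 0.69 ± 0.08 and the desaturase gene SCD by 0.40 ± 0.05, all 3 kept. FASN, the fatty acid synthase gene, was not called at -0.30 ± 0.10 (adjusted p = 0.0624), and at 0.08 with the GC trend removed. SREBF1, the gene of SREBP1, stood at 171, 118 and 119 CPM with siRNA 2 against 195 to 201 CPM, a fall of 0.55 ± 0.14 that became 0.26 with the trend removed and lost its call in 5 fits (adjusted p up to 0.125 without siRNA 2 replicate 2).

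Targets of the hypoxia-inducible factors were lower as well. Of 20 targets 16 fell and 0 rose, with a median of -0.50, and -0.51 with the GC trend removed. 10 of the 16 calls were kept, and 14 were also called with the trend removed. 19 of the 20 had all siRNA 2 libraries below all controls, as did 20.2% of all genes tested. The medians in replicates 1, 2 and 3 were -0.51, -0.52 and -0.49. BNIP3L, a mitophagy receptor gene, went from 328, 321 and 319 CPM in control to 129, 127 and 128 CPM with siRNA 2, a change of -1.33 ± 0.13 (edgeR, adjusted p = 0.000319). ANKRD37 went from 35.1, 31.6 and 33.6 CPM to 16.0, 12.5 and 11.5 CPM, a change of -1.33 ± 0.12. The angiogenic factor gene VEGFA went from 262, 255 and 253 CPM to 159.9, 152 and 147 CPM, a change of -0.75 ± 0.06. In these 3 genes the groups were far apart and the siRNA 2 libraries close together. The clock and stress repressor gene BHLHE40 fell by 0.83 ± 0.06, the MYC antagonist gene MXI1 by 0.70 ± 0.12, the peptide hormone gene ADM by 0.65 ± 0.08 and the carbonic anhydrase gene CA12 by 0.65 ± 0.11.

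The regulators of the hypoxia response did not move in one direction. HIF1A, which encodes the oxygen-labile factor itself, stood at 190.2, 195 and 197 CPM in control and at 239.8, 265 and 268 CPM with siRNA 2. All siRNA 2 libraries were higher, and the change of 0.41 ± 0.12 was not called (adjusted p = 0.0547), but was called at 0.23 with the GC trend removed (adjusted p = 0.0092). EPAS1, which encodes HIF-2alpha, fell by 0.54 ± 0.06, from 90.6, 90.5 and 89.5 CPM to 64.5, 62.1 and 59.2 CPM. EGLN3, an oxygen-sensing prolyl hydroxylase gene and itself induced by hypoxia, fell by 0.56 ± 0.09. ARNT2, a dimer partner, rose by 0.60 ± 0.15, from 5.04, 5.84 and 6.07 CPM to 7.10, 10.2 and 8.33 CPM, and lost its call in 5 fits (adjusted p up to 0.12 without siRNA 2 replicate 2). HIF1A was at -0.88 and EPAS1 at 0.36 with siRNA 1, so both differed between the siRNAs (adjusted p = 0.00022 and 4.1e-05).

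Glycolysis, the route from glucose to pyruvate, was lower at most of its steps. Of 16 enzyme genes 12 fell and 0 rose, with a median of -0.46, and -0.32 with the GC trend removed. Of these 12, 7 were kept, and all 12 were called with the trend removed. The enzyme medians in replicates 1, 2 and 3 were -0.25, -0.54 and -0.53. ENO2, an enolase gene, went from 509, 508 and 512 CPM in control to 283, 261 and 259 CPM with siRNA 2, a change of -0.93 ± 0.06 (edgeR, adjusted p = 5.7e-05). PFKFB3, which makes the activator of phosphofructokinase, went from 68.8, 74.5 and 68.7 CPM to 35.4, 29.4 and 32.9 CPM, a change of -1.12 ± 0.09. The phosphoglycerate kinase gene PGK1 went from 1807, 1792 and 1776 CPM to 1313, 1232 and 1225 CPM, a change of -0.51 ± 0.06.

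The groups did not overlap in any of these 3 genes. ALDOC, an aldolase gene, fell by 0.97 ± 0.09, PFKFB4 by 0.61 ± 0.07 and the phosphofructokinase gene PFKP by 0.54 ± 0.09. The glucose transporter gene SLC2A1 stood at 1243, 1023 and 1024 CPM against 1549, 1564 and 1578 CPM in control, a fall of 0.51 ± 0.07. Of 9 genes of lactate and pyruvate handling 1 fell and 2 rose. SLC16A3, the lactate exporter gene, fell by 1.01 ± 0.15, from 1036, 1011 and 1052 CPM to 673, 426 and 444 CPM (-0.73 with the trend removed). The pyruvate dehydrogenase gene PDHA1 and the transporter gene SLC16A1 rose by 0.33 and 0.38 and lost their calls in 4 and 5 fits, with adjusted p reaching 0.0826 without control replicate 3 and 0.101 without siRNA 2 replicate 3. LDHA, which makes lactate, stood at 3035, 2992 and 3001 CPM in control and 2709, 2810 and 2773 CPM with siRNA 2. Its change of -0.12 ± 0.04 was not called (adjusted p = 0.0556), and was called at -0.24 with the trend removed (adjusted p = 0.0019).

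The promoters of ENO2 and ANKRD37 are shown because both hold ACGTG, the core of the hypoxia response element. Among called genes with that core, ENO2 had the smallest adjusted p in the glycolysis list and ANKRD37 the largest fall in the hypoxia list. Both are RefSeq sequences of GRCh38.p14, chr12:6914330-6914629 and chr4:185396591-185396890, on the plus strand, with matches on either strand in capitals. In ENO2 the match starts 118 bases before the transcription start. In ANKRD37 matches start 162, 161 and 143 bases before it, the first 2 of them overlapping on opposite strands.
ENO2: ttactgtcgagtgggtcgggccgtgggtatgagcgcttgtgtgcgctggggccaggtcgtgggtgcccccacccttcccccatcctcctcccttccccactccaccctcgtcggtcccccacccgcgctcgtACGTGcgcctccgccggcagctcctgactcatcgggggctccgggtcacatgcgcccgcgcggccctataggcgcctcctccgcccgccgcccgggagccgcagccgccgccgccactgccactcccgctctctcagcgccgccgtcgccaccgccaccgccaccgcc
ANKRD37: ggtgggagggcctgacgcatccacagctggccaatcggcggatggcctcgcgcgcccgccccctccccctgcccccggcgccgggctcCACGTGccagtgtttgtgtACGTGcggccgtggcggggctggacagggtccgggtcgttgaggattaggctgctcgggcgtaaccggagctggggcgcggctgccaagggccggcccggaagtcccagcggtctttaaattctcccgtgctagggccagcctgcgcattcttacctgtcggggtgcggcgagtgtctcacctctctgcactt
The core was in 14 of 24 promoters of the hypoxia list (58.3%), in 9 of 27 of the glycolysis list (33.3%) and in 5900 of 27305 promoters (21.6%). These shares include genes that were not called, and the lists were themselves drawn up from known targets. Of 15 promoters of genes that fell in each list, 8 held the core in the hypoxia list and 7 in the glycolysis list.

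Against siRNA 1, 13 of the 20 hypoxia targets were lower and 1 higher with siRNA 2, and 13 of the 16 glycolytic enzymes were lower and 0 higher. With siRNA 1 against control, 5 targets fell and 1 rose, and of the enzymes 1 fell and 0 rose. ENO2 was at -0.12 with siRNA 1 and PFKFB3 at 0.19, neither called, and both differed between the siRNAs (adjusted p = 6.1e-05 and 4e-05).

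The ATF4 response supplies amino acids and restrains translation. Of its 30 genes tested 15 fell and 0 rose, with a median of -0.26, and -0.17 with the GC trend removed. Of these, 10 were kept and 14 were called with the trend removed. SLC7A5, the large neutral amino acid transporter gene, went from 474, 480 and 489 CPM in control to 222, 169 and 172 CPM with siRNA 2, a change of -1.36 ± 0.11 (edgeR, adjusted p = 0.000137). Its partner subunit gene SLC3A2 went from 216, 223 and 218 CPM to 155, 134 and 128 CPM, a change of -0.66 ± 0.09. ASNS, asparagine synthetase, went from 113, 109 and 107 CPM to 70.9, 64.3 and 70.3 CPM, a change of -0.68 ± 0.07. All siRNA 2 libraries of these 3 genes were below all controls. CHAC1 fell by 1.36 ± 0.16, the secreted hormone gene STC2 by 0.86 ± 0.07 and PHGDH, which opens serine synthesis, by 0.59 ± 0.10. CEBPB stood at 44.8, 17.5 and 16.8 CPM with siRNA 2 against 82.4, 82.9 and 84.7 CPM, a change of -1.66 ± 0.32, or -1.33 with the trend removed. ATF4 itself stood at 259, 244 and 236 CPM against 305, 296 and 308 CPM, a fall of 0.30 ± 0.07 that was -0.18 with the trend removed and lost its call in 5 fits (adjusted p up to 0.0901 without control replicate 3).

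With siRNA 1 against the same controls, 16 of the 30 rose and 0 fell, with a median of 0.41, where 3.72% of all genes rose. Between the siRNAs, 19 of the 30 were lower with siRNA 2 and 1 was higher. ASNS was at 1.04 and SLC7A5 at 0.75 with siRNA 1, and the difference between the siRNAs had adjusted p = 1.7e-06 and 1.5e-05. Since both comparisons use the same controls, the test between the siRNAs is the one that does not rest on them. Of 20 genes of protein folding in the endoplasmic reticulum, another stress branch, 1 fell, EDEM1, which marks misfolded glycoproteins for disposal (-0.70 ± 0.10), and 0 rose, with a median of 0.02. With the GC trend removed 4 fell and 4 rose, with a median of -0.09.

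The promoters of ASNS and CHAC1 are shown because they had the smallest adjusted p among the 5 promoters of the list that held TGATGNAA, a C/EBP-ATF response element of the kind ATF4 binds with a C/EBP partner. They are RefSeq sequences of GRCh38.p14, chr7:97872359-97872658 on the minus strand and chr15:40953221-40953520 on the plus strand, each printed in the direction of transcription with the match in capitals. The match starts 68 bases before the transcription start in ASNS and 209 before it in CHAC1, where it lies on the other strand.
ASNS: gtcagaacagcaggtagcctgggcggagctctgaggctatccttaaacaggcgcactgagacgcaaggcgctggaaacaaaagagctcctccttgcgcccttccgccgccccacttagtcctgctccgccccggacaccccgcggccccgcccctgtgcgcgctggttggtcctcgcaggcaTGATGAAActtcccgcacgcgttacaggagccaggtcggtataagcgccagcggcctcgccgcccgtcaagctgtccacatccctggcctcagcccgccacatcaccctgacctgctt
CHAC1: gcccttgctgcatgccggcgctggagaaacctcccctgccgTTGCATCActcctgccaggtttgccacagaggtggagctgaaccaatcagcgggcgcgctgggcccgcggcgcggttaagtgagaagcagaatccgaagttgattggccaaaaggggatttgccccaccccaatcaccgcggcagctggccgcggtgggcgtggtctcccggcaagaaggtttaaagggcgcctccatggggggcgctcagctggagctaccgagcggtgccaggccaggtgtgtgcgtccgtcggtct
The motif was in 5 of 25 promoters of the list (20%) and in 3.67% of 27305 promoters. All 5 were of genes that fell (ASNS, CHAC1, SLC3A2, ATF3 and SLC7A1), as were 14 of the 25. The list was chosen with earlier results of these data known, and a match is not evidence of binding.

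**Figure D3:**
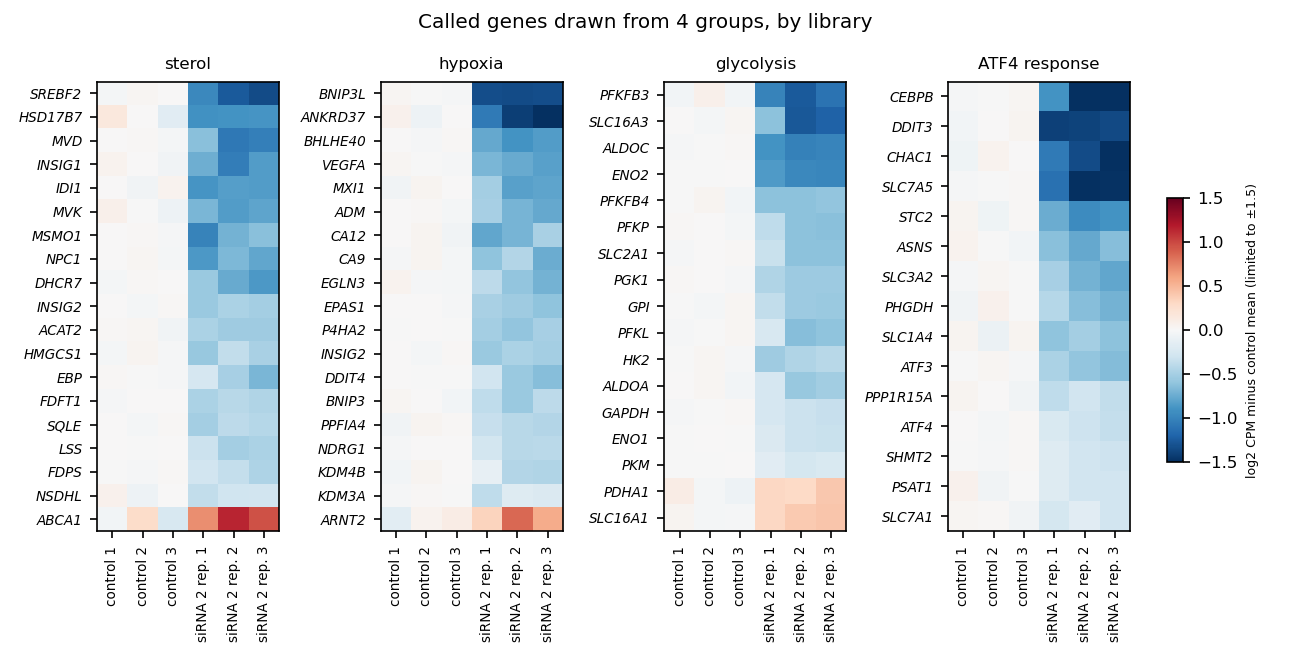
The heat map of the sterol, hypoxia, glycolysis and ATF4 genes gives log2 CPM minus the control mean for the called members drawn, with 1 column per library and blue for lower than control (colours are limited at both ends of the scale). The controls are pale throughout. The siRNA 2 libraries are blue for all but ABCA1, ARNT2, PDHA1 and SLC16A1, with replicate 1 paler in the glycolysis genes SLC16A3, PFKL and ALDOA.

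Among interferon-stimulated genes and the APOBEC3 family more rose than fell. Interferons are antiviral cytokines, and double-stranded RNA is among the signals that induce their target genes. Of 29 members 10 rose and 4 fell, with a median of 0.48, and 0.47 with the GC trend removed. Of these 14, 9 were kept. IFIT1, which binds foreign RNA ends, went from 5.66, 5.94 and 6.17 CPM in control to 13.3, 17.1 and 16.8 CPM with siRNA 2, a change of 1.41 ± 0.13 (edgeR, adjusted p = 0.000303). Its neighbour IFIT2 went from 4.07, 3.42 and 3.88 CPM to 9.03, 13.2 and 10.2 CPM, a change of 1.51 ± 0.19. IFI44 rose by 1.72 ± 0.43 from 0.584, 0.212 and 0.79 CPM to 1.61, 2.00 and 1.64 CPM and lost its call in 4 fits (adjusted p up to 0.0941 without siRNA 2 replicate 2).

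Other members fell. IRF7, a transcription factor that amplifies the response, fell by 1.02 ± 0.21, from 15.6, 14.8 and 15.2 CPM to 9.34, 5.98 and 7.14 CPM. With the GC trend removed the fall was 0.60, and the call was lost without siRNA 2 replicate 2 (adjusted p = 0.0539) and in 1 other fit. ISG20, an RNA exonuclease gene, fell by 0.98 ± 0.14 and was kept. In the APOBEC3 family of 7 cytidine deaminase genes, 3 rose and 1 fell, all 4 kept. APOBEC3G is given above, APOBEC3C rose by 0.43 ± 0.07, and APOBEC3F rose by 0.92 ± 0.09, from 19.6, 22.0 and 19.8 CPM to 35.7, 40.7 and 39.4 CPM. APOBEC3B, which lies in the same cluster, fell by 0.75 ± 0.10, from 24.1, 23.7 and 25.8 CPM to 15.1, 12.9 and 15.7 CPM. APOBEC3 genes are close paralogs, so reads may be shared between them. With siRNA 1, 3 members of the whole list fell and 0 rose, with a median of -0.12, and 14 of 29 were higher with siRNA 2 than with siRNA 1 while 4 were lower (10.1% and 12.3% of all genes). APOBEC3B was at -0.82 with siRNA 1, close to its value with siRNA 2. Of 14 antigen presentation genes, which interferons also control, 4 fell and 0 rose, HLA-B and HLA-C among them, and none of the 4 calls was kept (adjusted p of HLA-C up to 0.0651 without siRNA 2 replicate 2). HLA genes are paralogs and may share reads.

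Some genes of cytosolic chaperones and of the nucleolus rose. Of 15 heat shock genes 7 rose and 0 fell, with a median of 0.29, and 0.20 with the GC trend removed, and 5 of the calls were kept. HSPA8, the constitutive cytosolic chaperone, went from 1161, 1186 and 1190.0 CPM to 1766, 1713 and 1707 CPM, a change of 0.55 ± 0.05. HSPH1, a nucleotide exchange factor, went from 164, 167 and 158 CPM to 253, 282 and 290.2 CPM, a change of 0.76 ± 0.08. HSP90AA1 rose by 0.73 ± 0.08 and the mitochondrial chaperonin gene HSPD1 by 0.68 ± 0.08. HSPA1A and HSPA1B, the paired stress-inducible genes of the family, were not called, and HSF1, the transcription factor of the response, was not called at -0.26 ± 0.10 (0.10 with the trend removed). With siRNA 1, 8 of the 15 rose too, with a median of 0.29.

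Of 25 genes of ribosome biogenesis and the MYC network, 9 rose and 1 fell, with a median of 0.18, and 0.22 with the GC trend removed. NOLC1, a nucleolar chaperone gene, went from 239, 232 and 231 CPM to 362, 366 and 373 CPM, a change of 0.65 ± 0.06. The rRNA processing gene UTP20 rose by 0.74 ± 0.09, the pseudouridine synthase gene DKC1 by 0.42 ± 0.07, POLR1B, a subunit of RNA polymerase I, by 0.54 ± 0.09 and nucleolin, NCL, by 0.32 ± 0.05, all kept. MXD1, which competes with MYC for its partner MAX, fell by 1.04 ± 0.10, from 34.6, 33.1 and 31.2 CPM to 16.2, 16.2 and 15.7 CPM. MYC itself stood at 162, 155 and 156 CPM against 145, 150.4 and 141 CPM, a change of 0.12 ± 0.07 that was not called (adjusted p = 0.285). Of 30 cytosolic ribosomal protein genes 9 fell and 0 rose as deposited, with a median of -0.22. With the trend removed 17 fell and 1 rose, with a median of -0.22. The medians as deposited were -0.09, -0.31 and -0.28 in replicates 1, 2 and 3. Of the 9 calls as deposited 0 were kept, with adjusted p of RPL10 up to 0.0832 without siRNA 2 replicate 2. Many processed pseudogenes share reads with these genes.

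**Figure D4:**
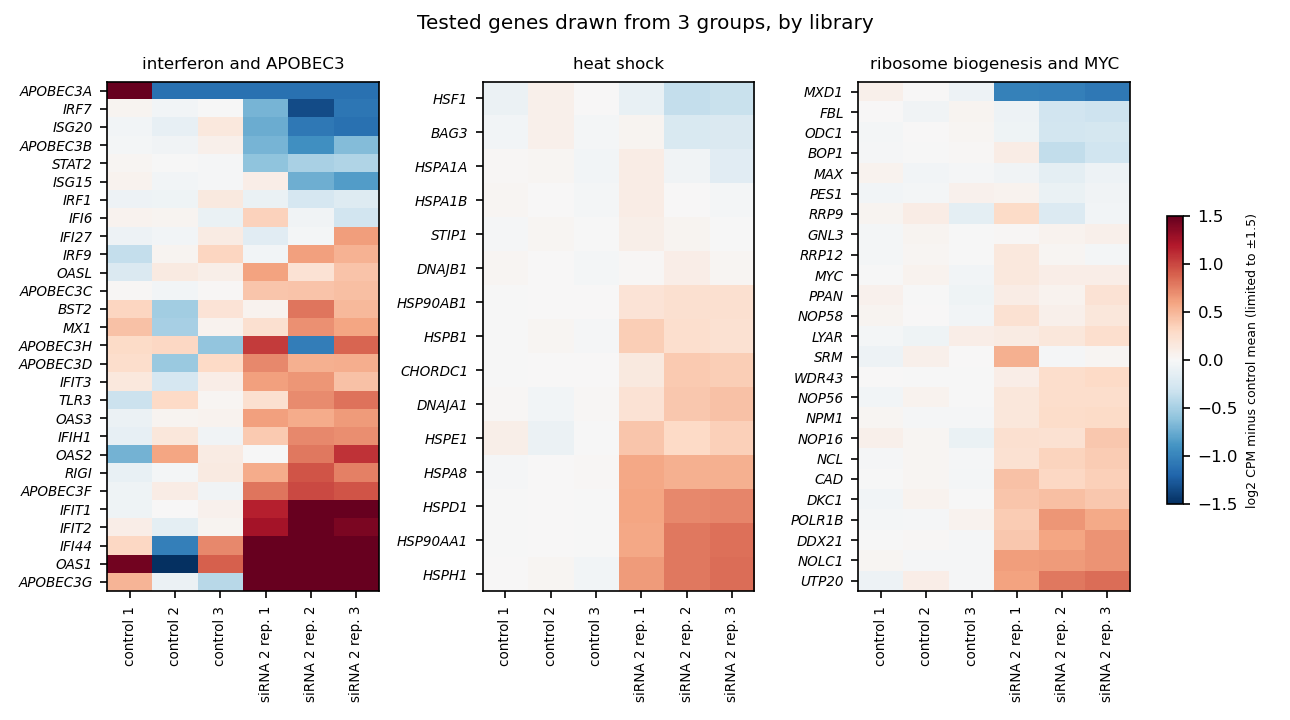
The heat map of the interferon and APOBEC3, heat shock, and ribosome biogenesis lists gives log2 CPM minus the control mean for the tested members drawn, with 1 column per library and red for higher than control (colours are limited at both ends of the scale). Low-count genes such as OAS1 and APOBEC3A vary between controls. APOBEC3G, IFIT1 and IFIT2 are red in all 3 siRNA 2 libraries, and MXD1 and IRF7 are blue in all 3.

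CCND1, the cyclin D1 gene that starts the cycle, went from 1489, 1501 and 1463 CPM in control to 836, 799.9 and 799 CPM with siRNA 2, a change of -0.87 ± 0.09 (edgeR, adjusted p = 0.000377), and stood at -0.86 with siRNA 1. The inhibitor gene CDKN1A, a p53 target, fell by 0.42 ± 0.06 (0.27 with the GC trend removed), from 769, 759 and 782 CPM to 628, 556 and 546 CPM. Among 27 p53 targets 3 rose and 5 fell, with a median of 0.03, and PLK3 fell by 0.69 ± 0.10 (0.44 with the trend removed). Of 41 genes of the G1/S transition and replication 5 rose and 4 fell, with a median of 0.09. Of 30 mitosis genes 9 rose and 0 fell, with a median of 0.19. With the trend removed 13 rose and 2 fell, with a median of 0.11. As deposited 3 of the calls were kept. These were the mitotic cyclin genes CCNB1 (0.53 ± 0.07) and CCNB2 (0.46 ± 0.06) and the kinetochore gene CENPF (0.66 ± 0.11). Of 20 DNA repair genes 7 rose and 0 fell, with a median of 0.24. With the trend removed 6 rose and 2 fell, with a median of 0.12. The 2 calls kept as deposited were the uracil glycosylase gene UNG (0.54 ± 0.07) and the checkpoint kinase gene ATR (0.65 ± 0.10). The median GC content of the repair list was 42.3% and that of the mitosis list 43.8%, against 49.1% for all genes.

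Growth factor and adhesion genes changed in both directions. BMP4, a ligand of the TGF-beta superfamily, went from 108, 106 and 108 CPM in control to 252, 226 and 232 CPM with siRNA 2, a change of 1.14 ± 0.07 (edgeR, adjusted p = 5.7e-05). ID3, a target of BMP signalling, went from 15.2, 13.6 and 13.3 CPM to 26.1, 29 and 26.7 CPM, a change of 0.95 ± 0.11. SMAD3, which transduces TGF-beta signals, went from 147, 152 and 149.9 CPM to 86.0, 84.3 and 80.1 CPM, a change of -0.84 ± 0.06. In these 3 genes siRNA 1 moved the level the same way, by 0.68, 0.68 and -0.77. The YAP targets CCN2 and AMOTL2 fell by 0.92 ± 0.13 and 0.62 ± 0.07. Another YAP target, ANKRD1, was at 0 in every control and at 20, 31 and 16 counts with siRNA 2, at least 7.35-fold higher against a floor of 3 counts per library, and lost its call in 4 fits (adjusted p up to 0.0685 without siRNA 2 replicate 2). Of the 32 genes of the list 4 rose and 7 fell, with a median of -0.13, also with ANKRD1 at its bound.

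In the insulin-like growth factor axis, IRS1, an adaptor of the receptors, went from 63.5, 65.1 and 66.1 CPM to 135, 128 and 128 CPM, a rise of 1.00 ± 0.07. The related adaptor gene IRS2 went from 39.5, 39.9 and 41.7 CPM to 26.7, 19.7 and 18.5 CPM, a fall of 0.90 ± 0.13. With siRNA 1 neither was called, at -0.20 and 0.00, and both differed between the siRNAs (adjusted p = 1.5e-05 and 0.0016). Of 19 genes of NF-kB signalling and its targets 7 fell and 0 rose, with a median of -0.44, and -0.38 with the GC trend removed. The subunit genes NFKB2 and RELA fell by 0.70 ± 0.10 (0.42 with the trend removed) and 0.51 ± 0.08, and the inhibitor genes NFKBIA and TNFAIP3, both targets of the factor, by 0.77 ± 0.11 and 0.79 ± 0.12, all 4 kept. NFKB1 was not called at -0.03 ± 0.08. The chemokine gene CXCL8 fell by 0.81 ± 0.16, or 0.99 with the trend removed, and lost its call in 3 fits (adjusted p up to 0.0573 without control replicate 2). Against 17.7% of coding genes called, 5 of 22 MAPK output genes fell and 0 rose, with a median of -0.11. They include the phosphatase gene DUSP5 (-0.81 ± 0.09), which damps the pathway, and the AP-1 genes JUNB (-0.81 ± 0.12, and -0.46 with the trend removed) and FOSL1 (-0.61 ± 0.09, and -0.40).

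Of 19 genes of the matrix and basement membrane 3 rose and 7 fell, with a median of -0.16, and -0.12 with the GC trend removed. LAMB3, a chain of the epithelial laminin 332, went from 169, 176 and 172 CPM to 98.3, 77.5 and 79.0 CPM, a change of -1.02 ± 0.10. LAMB1, a chain of other laminins, went from 140.3, 139.5 and 142 CPM to 183, 207 and 205 CPM, a rise of 0.49 ± 0.07. Among the GC-rich genes AGRN and LAMA5, falls of 0.66 ± 0.14 and 0.66 ± 0.13 became 0.21 and 0.25 with the GC trend removed, and the call of AGRN was lost in 4 fits (adjusted p up to 0.0628 without siRNA 2 replicate 3). The pericellular protease gene PLAU went from 88.1, 88.5 and 90.7 CPM to 49.4, 49.2 and 45.1 CPM, a fall of 0.90 ± 0.07, and its receptor gene PLAUR fell by 0.81 ± 0.12. Of 18 genes of proteases and inhibitors 3 rose and 7 fell. Of 14 integrin genes 2 rose and 5 fell, with ITGA3 at -0.49 ± 0.08 (-0.24 with the trend removed) and ITGB5 at -0.58 ± 0.10.

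Of 38 epithelial genes 4 rose and 14 fell, with a median of -0.21 in both fits. Keratin genes changed in both directions. KRT23 went from 12.1, 11.4 and 10.8 CPM to 26.8, 26.2 and 24.9 CPM, a rise of 1.18 ± 0.11, and KRT20, a marker of mature colonic epithelium, rose by 2.04 ± 0.28 from under 1 CPM. KRT80 fell by 1.32 ± 0.16 and KRT7 by 1.08 ± 0.12, the latter with -1.70 in siRNA 1. The epithelial transcription factor genes ELF3 and KLF4 fell by 0.76 ± 0.08 and 0.70 ± 0.09. Of 10 defining markers of the labelled epithelial line, 7 passed the filter. All 10 summed to 5070 to 5170 CPM in control and 3710 to 4420 CPM with siRNA 2, with CDX1 at 0 in all 6 libraries. Their part in the epithelial counts was not tested, and fewer cells of a kind and less RNA per cell cannot be told apart in bulk RNA. Of markers of other cell types, those of leukocytes summed to 2.42 to 3.10 CPM in control and 2.21 to 2.61 CPM with siRNA 2, with PTPRC, CD3E and MS4A1 at 0. Fibroblast markers summed to 59.5 to 61.4 and 36.1 to 40.3 CPM, nearly all from COL1A1, with POSTN at 0. Endothelial markers summed to 1.48 to 2.58 and 1.33 to 1.93 CPM, with EMCN at 0. Markers of neurons and liver summed to 109 to 118 CPM in control and 104 to 124 CPM with siRNA 2, with STMN2 and TTR at 0. Of 5 of them tested 1 rose, and its call was not kept.

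Of 37 genes of the lysosome and autophagy 2 rose and 11 fell, with a median of -0.12, among them CD68, the cathepsin genes CTSA (-0.59 ± 0.08, and -0.36 with the GC trend removed) and CTSB (-0.45 ± 0.07). Of 15 genes of the mitochondrial genome 6 rose and 0 fell, with a median of 0.12. With the trend removed 5 rose and 1 fell, with a median of 0.02, and 4 calls as deposited were kept, among them MT-ND5 (0.37 ± 0.04) and MT-ND1 (0.36 ± 0.06). The share of mitochondrial counts given above moved with them. Of 25 nuclear genes of the respiratory chain 3 fell and 0 rose, with a median of -0.04. Of 13 genes of the RNA interference machinery 3 rose and 1 fell, with a median of 0.14, and with the trend removed 3 rose and 2 fell, with a median of 0.02. TNRC6C, a partner of Argonaute in silencing, fell by 0.58 ± 0.07 and was kept, and the Argonaute gene AGO1 rose by 0.44 ± 0.10 and lost its call in 5 fits (adjusted p up to 0.0720 without siRNA 2 replicate 2).

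**Figure D5:**
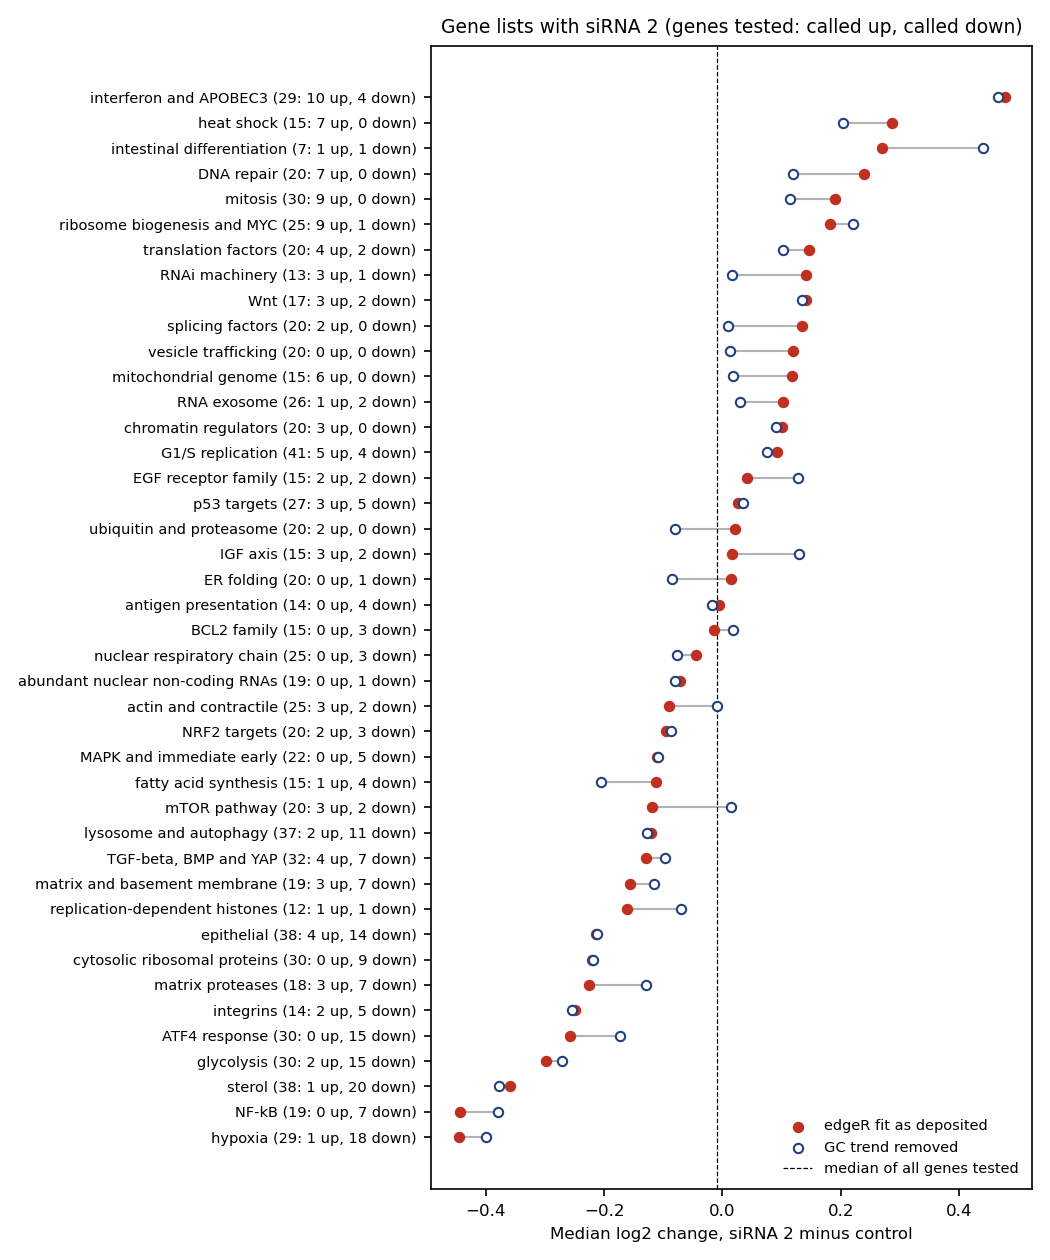
The plot of gene lists gives the median log2 change of siRNA 2 against control (horizontal axis) of each list other than the cell type marker lists, as deposited (filled) and with the GC trend removed (open), with the numbers of genes tested and called in its label. The dashed line is the median of all genes, -0.01. Of the lists drawn, the hypoxia, NF-kB and sterol lists lie lowest and the interferon and APOBEC3 list highest in both fits, while the DNA repair, splicing and mitochondrial genome lists move towards the line once the trend is removed.

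Long non-coding RNAs were called less often than coding genes, at 4.48% of 3436 against 17.7% of 14538, with a median average level of -0.85 against 4.70 log2 CPM. The 6 largest rises and 6 largest falls among those called in both fits are named here. LINC02331 went from 3.82, 3.76 and 4.53 CPM in control to 12.1, 18.7 and 16.6 CPM with siRNA 2, a change of 1.97 ± 0.18 (edgeR, adjusted p = 0.000259). FLG-AS1 and KLRK1-AS1 rose by 1.64 ± 0.30 and 1.34 ± 0.21. INSIG1-DT, which starts next to INSIG1, fell by 2.03 ± 0.38, from 1.92, 1.78 and 1.92 CPM to 0.78, 0.316 and 0.281 CPM. RUSC1-AS1, whose exons overlap the sterol synthesis gene FDPS on the opposite strand, fell by 1.02 ± 0.14, and RARA-AS1 by 1.06 ± 0.18. The other 6 (LINC01232, HAS2-AS1, APPAT, ZC3H12A-DT, SCIRT and CD27-AS1) lost their calls in 1 to 5 fits, with adjusted p from 0.0529 for APPAT without siRNA 2 replicate 2 to 0.0992 for HAS2-AS1 without siRNA 2 replicate 3. Those named AS1 overlap genes on the opposite strand, and without the counting strand their reads cannot be told from those genes.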

How the data were processed

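RNA-seq was deposited for 9 HCT116 libraries in 3 groups of 3, of which 6 are compared here. The authors deposited raw counts per gene for every library in 1 table, with 61806 gene identifiers. The build is hg19 per the submitters' processing notes. The aligner, counter, annotation, and strand setting were not given in the sources used; siRNA sequences are not used here. Genes with at least 10 counts in enough libraries and 15 in total were kept by edgeR's filter, leaving 20868 with 99.96% of counts. edgeR 4.0.16 (R 4.3.3) fitted all 3 groups with TMM scaling and its quasi-likelihood test, with Benjamini-Hochberg adjustment over all genes. The biological coefficient of variation was 20.0%. For the second fit, a spline of GC content (5 degrees of freedom, GENCODE 29 transcripts, fitted on genes with log2 CPM of at least 2) was removed from each library. Of the tested genes, 668 had no GC value. The fits across genes were tested on simulated data. DESeq2 1.42.0, limma 3.58.1, other scalings, other filters and omitted libraries were alternatives. Floors are 3 counts per library and cover counting error only. Overlaps between genes come from GENCODE 29 and promoters from RefSeq's GRCh38.p14, both matched by gene, with no coordinate carried between builds. Named genes were the 15 largest changes each way, up to 8 called members of each list, the 6 largest changes each way among long non-coding RNAs and the genes moved most by GC removal. The comparison and the gene lists were chosen with earlier results of these data known. A few list members count in the totals but are not reported here by name or drawn.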

Additional observations from a re-analysis of the deposited data

How the results depend on the processing

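Against 2872 genes called, the 6 libraries alone gave 4664 (2436 higher, 2228 lower), and 4724 (2297 higher, 2427 lower) with the GC trend also removed. DESeq2 gave 1974 higher genes and GC removal 2088, against 1284. A 2-fold minimum left 340 (158 higher, 182 lower), and siRNA 2 replicate 1 alone against the controls 195 (86 higher, 109 lower). Leaving out 1 library gave 1080 to 5140 called genes, 463 to 2225 of them higher and 599 to 2915 lower, with and without GC removal. Without siRNA 2 replicate 1, 4386 were called (1749 higher, 2637 lower). After GC removal, leaving out each control gave 2717, 2751 and 2658, and siRNA 2 replicates 1, 2 and 3 gave 5140, 2739 and 2762. Replicate numbers showed little pairing of the samples. Deviations of same-numbered siRNA 2 and control libraries correlated at -0.0262, -0.0449 and -0.00901, and those of siRNA 2 and siRNA 1 at 0.0962, 0.0488 and 0.0213. The fit with the replicate number as a block called 3311 genes, or 4033 with GC removal. No called result named here reversed its direction under the alternatives run. FASN and HSF1, which were not called, changed sign with GC removal, from -0.30 to 0.08 and from -0.26 to 0.10. Of the named results, 246 kept and 15 lost their call with GC removal, and 155 to 257 kept it when 1 library was left out. The cause of these differences was not tested. With 3 libraries a group, whose independence is not stated, and a targeted RNA under 1 CPM, the table limits what can be said of the knockdown itself.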

Other observations

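One further group, picked after its values were seen, was the zinc finger genes, which encode DNA-binding repressors and lie in clusters. Of 368 tested genes whose symbol is ZNF with a number, 64 rose and 4 fell, with a median change of 0.22, and with the GC trend removed 88 rose and 8 fell, with a median of 0.16. Of the 165 on chromosome 19, 36 rose and 0 fell, with a median of 0.28, and with the trend removed 42 rose and 1 fell, with a median of 0.18. These genes are close paralogs that may share reads.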
